A study of Homo sapiens with 12 samples.

Results

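Transcripts of the Toll-like receptor system were followed in MV4-11, an established cell line grown from a human acute myeloid leukaemia. The genes were 7 receptors (TLR1, TLR2, TLR4, TLR5, TLR6, TLR7 and TLR8), the co-receptors CD14 and LY96 and the adaptor MYD88, taken by gene symbol from a raw count table of 58051 Ensembl genes, and each of these 10 genes had a row. Cells had received 200 nM YKL-06-102, 200 nM BSJ-03-123, 200 nM palbociclib or the vehicle, 0.1% DMSO, for 6 h, and each of the 4 groups had 3 libraries of polyadenylated RNA. Palbociclib inhibits the kinase activity of CDK4 and CDK6. The submitters describe YKL-06-102 and BSJ-03-123 as phthalimide conjugates specific for CDK6, in a study of CDK6 degradation. All groups are of 1 cell line, and no label states whether its replicates are separate cultures. The p-values therefore reflect library-to-library spread, which may be technical. No ligand of a Toll-like receptor is named in the labels.

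Toll-like receptors are innate immune receptors that recognise conserved microbial molecules. TLR2 works with TLR1 or TLR6 to bind bacterial lipopeptides, TLR4 binds lipopolysaccharide together with LY96 (the protein MD-2) and receives it from CD14, TLR5 binds bacterial flagellin, and TLR7 and TLR8 bind single-stranded RNA in endosomes. After ligand binding these receptors recruit the adaptor MYD88, which engages IRAK kinases and TRAF6 and leads to activation of NF-kappaB and of cytokine genes such as TNF. Cells of the monocytic lineage are known to carry many of these receptors.

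Library totals ranged from 18764307 to 25539858 counts. Levels are counts scaled to equal library size (CPM), adjusted by TMM factors, which correct library totals for differences in composition, and values after ± are SDs for CPM and standard errors for log2 fold changes, with n = 3 libraries per group. Of the 10 genes, 6 passed the filter on low counts and were tested among 14214 genes (TLR1, TLR2, TLR4, TLR5, TLR6 and MYD88), and 4 did not (TLR7, TLR8, CD14 and LY96). A gene was called at a Benjamini-Hochberg adjusted p below 0.05 over all tested genes in edgeR's quasi-likelihood test. DMSO replicate 2 stood apart from its group, its counts differing from those of DMSO replicates 1 and 3 by chi-squares of 5.71 and 8.63 per degree of freedom; other replicate pairs stayed at or under 2.91. All 10 myeloid and monocytic markers examined passed the filter, from 6.49 to 10.4 CPM for MPO to 632 to 859 CPM for LYZ, over the 12 libraries, and their summed level lay between 2330 and 2350 CPM with YKL-06-102, 1970 and 2010 with BSJ-03-123, 1990 and 2020 with palbociclib, and 1830 and 1900 with DMSO. Over the 12 libraries this sum was mostly LYZ, CEBPA (351 to 428 CPM) and SPI1 (300 to 444 CPM). It therefore does not show whether each of the 10 markers rose. The part of this sum in the receptor results was not tested. Of the markers of other cells, 2 of 6 for T and NK cells passed the filter, with summed levels of 52.1 to 56.6 CPM with YKL-06-102, 48.3 to 51.5 with BSJ-03-123, 47 to 50.7 with palbociclib and 44.7 to 52.4 with DMSO. For B cells 3 of 5 passed (3.11 to 3.73, 4.07 to 5.22, 4.15 to 4.51 and 4.83 to 5.6 CPM in the same order), for erythroid and megakaryocytic cells 1 of 6 (12.4 to 13.8, 11.9 to 13.2, 12.3 to 13.6 and 11.1 to 12.7 CPM), and for stromal and epithelial cells 4 of 8 (138 to 145, 161 to 164, 166 to 172 and 154 to 155 CPM). Over the 12 libraries the sum for T and NK cells was mostly NKG7 (43.8 to 55.9 CPM). The sum for stromal and epithelial cells was mostly PECAM1 (118 to 153 CPM). CD2, MS4A1, HBB, ALAS2, PF4 and EPCAM had a count of 0 in every library.

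The baseline order of the genes was taken per kb of exon, since longer transcripts collect more reads. In DMSO libraries MYD88 was highest at 21.2 ± 0.677 CPM per kb, followed by TLR2 at 11.4 ± 0.781, TLR4 at 1.89 ± 0.0541 and TLR1 at 1.19 ± 0.0750 CPM per kb. None of these levels overlapped its neighbour between DMSO libraries. TLR6 (0.368 ± 0.0551 CPM per kb) and LY96 (0.329 ± 0.118 CPM per kb) came next and overlapped, as did TLR5 with CD14 (0.139 ± 0.00334 and 0.125 ± 0.0656 CPM per kb) and TLR7 with TLR8 (0.0368 ± 0.00599 and 0.0196 ± 0.0155 CPM per kb). Per kb, mRNA of the lipopeptide receptor TLR2 thus exceeded that of its partners TLR1 and TLR6, and mRNA of TLR4 exceeded that of its co-receptors LY96 and CD14, in every DMSO library. The exon length of TLR4 (13272 bases in GENCODE 29) is the longest of the 10, and a shorter true transcript would raise its level per kb.

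**Figure D1:**
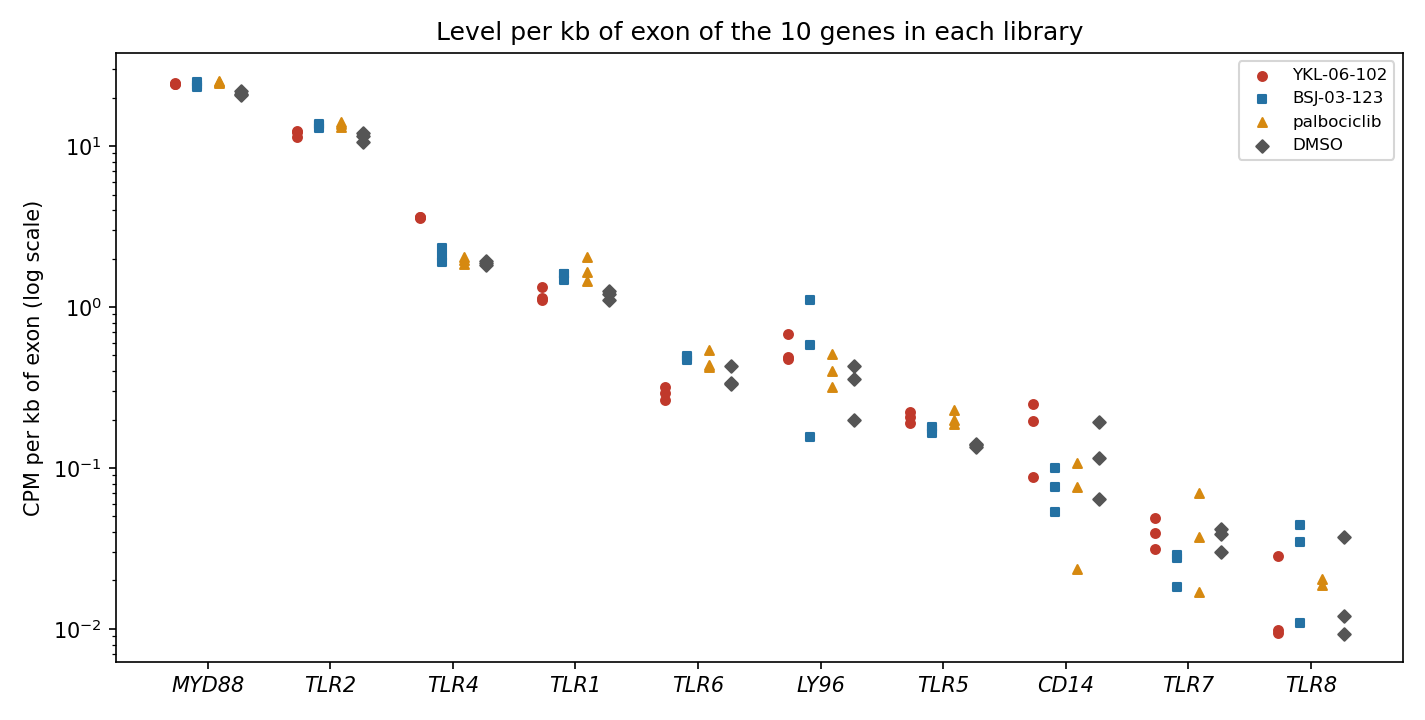
Level of each of the 10 genes in every library, as CPM per kb of exon on a log scale, by group, in order of the DMSO mean. MYD88 and TLR2 lie highest, with DMSO means of 21.2 and 11.4 CPM per kb, and TLR7 and TLR8 lowest in DMSO; the palbociclib library with a TLR8 count of 0 cannot be drawn on this axis.

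The promoter windows of TLR4, MYD88 and TLR2, the genes whose responses are described next, are shown because these genes responded to different sets of compounds. Each is the RefSeq window from 250 bases before to 50 bases after the gene start in GRCh38.p14, read 5′ to 3′ on the gene's strand, the plus strand for each: chr9:117704153-117704452 for TLR4, chr3:38138411-38138710 for MYD88 and chr4:153684030-153684329 for TLR2. Capitals mark matches, on either strand, to the core bound by the myeloid factor PU.1 (GAGGAA, reverse TTCCTC) and to an interferon response element core (GAAANNGAA). They also mark matches to a loose E2F pattern (TTTNNCGC). N is any base, where the E2F consensus has C or G.
TLR4: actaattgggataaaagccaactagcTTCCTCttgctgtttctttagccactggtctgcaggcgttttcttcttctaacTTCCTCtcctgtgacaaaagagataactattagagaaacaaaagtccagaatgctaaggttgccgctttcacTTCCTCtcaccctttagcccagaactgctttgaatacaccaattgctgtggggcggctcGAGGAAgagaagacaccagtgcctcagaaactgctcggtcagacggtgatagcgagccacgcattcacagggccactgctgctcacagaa
MYD88: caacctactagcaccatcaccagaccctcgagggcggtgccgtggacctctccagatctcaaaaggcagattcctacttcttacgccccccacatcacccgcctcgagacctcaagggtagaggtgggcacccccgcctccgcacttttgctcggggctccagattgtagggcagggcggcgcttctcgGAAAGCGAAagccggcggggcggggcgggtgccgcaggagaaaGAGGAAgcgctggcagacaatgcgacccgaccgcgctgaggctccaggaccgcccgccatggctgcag
TLR2: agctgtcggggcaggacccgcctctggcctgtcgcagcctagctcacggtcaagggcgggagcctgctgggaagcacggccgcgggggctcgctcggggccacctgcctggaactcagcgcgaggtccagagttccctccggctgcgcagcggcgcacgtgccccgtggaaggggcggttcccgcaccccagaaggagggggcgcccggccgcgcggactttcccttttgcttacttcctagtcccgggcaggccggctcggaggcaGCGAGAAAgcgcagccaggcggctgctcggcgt

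The TLR4 window held 4 matches to the PU.1 core, at positions -224, -171, -99 and -40 from the start. The MYD88 window held 1 match to the PU.1 core, at position -18, and 1 to the interferon response element core, and the TLR2 window held 1 match to the E2F site, on the reverse strand just after the start. Of 35116 RefSeq windows of the same length, 27.9% held the PU.1 core, 8.11% the interferon response element core and 6.89% the loose E2F pattern. A count of 4 or more PU.1 core matches was found in 0.0911% of the windows. The number 4 was taken from the TLR4 window itself, so this share is not a test of any link to the response of TLR4. The NF-kappaB consensus, found in 5.91% of all windows, had no match in these 3. These matches are letters in a window, no binding was measured, and a part in the responses was not tested. The RefSeq starts of these 3 windows lie downstream of the GENCODE 29 gene starts given with the results. The TLR4 matches lie within the GENCODE gene. Windows were given for 7 of the 10 genes. Those of TLR6 and CD14 also held the PU.1 core, at positions -195 and -96, and those of TLR5 and TLR8 did not.

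TLR4, the lipopolysaccharide receptor, rose with YKL-06-102 and did not pass the test with the other compounds. It had 47.6, 48.2 and 48.3 CPM in YKL-06-102 libraries, 25.2, 31.0 and 27.6 CPM in BSJ-03-123 libraries, 27.3, 25.97 and 24.6 CPM in palbociclib libraries, and 24.3, 25.1 and 25.8 CPM in DMSO libraries. Every YKL-06-102 library lay above all 9 others, while BSJ-03-123 and palbociclib libraries overlapped with DMSO. The log2 fold change over DMSO was 0.94 ± 0.058 for YKL-06-102 (1.92-fold; edgeR adjusted p = 1.28e-13), 0.16 ± 0.063 for BSJ-03-123 (adjusted p = 0.0589) and 0.053 ± 0.063 for palbociclib (adjusted p = 0.568). Set against the other compounds directly, YKL-06-102 gave a TLR4 level higher by 0.89 ± 0.057 than palbociclib (adjusted p = 6.54e-13) and by 0.78 ± 0.057 than BSJ-03-123 (adjusted p = 1.85e-11), on the log2 scale. BSJ-03-123 passed the test against DMSO without its replicate 1 (log2 fold change 0.22), with scaling to library totals alone (0.20) and with no filter on low counts (0.17). Without its replicate 2 the value was 0.072, and its adjusted p ranged from 0.0103 to 0.467 over the alternatives. TLR4 lies on chromosome 9, 117704175 to 117724730, plus strand (ENSG00000136869, GRCh38). In bulk RNA, a change in the share of cells that express a gene and a change of its RNA per cell cannot be told apart.

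**Figure D2:**
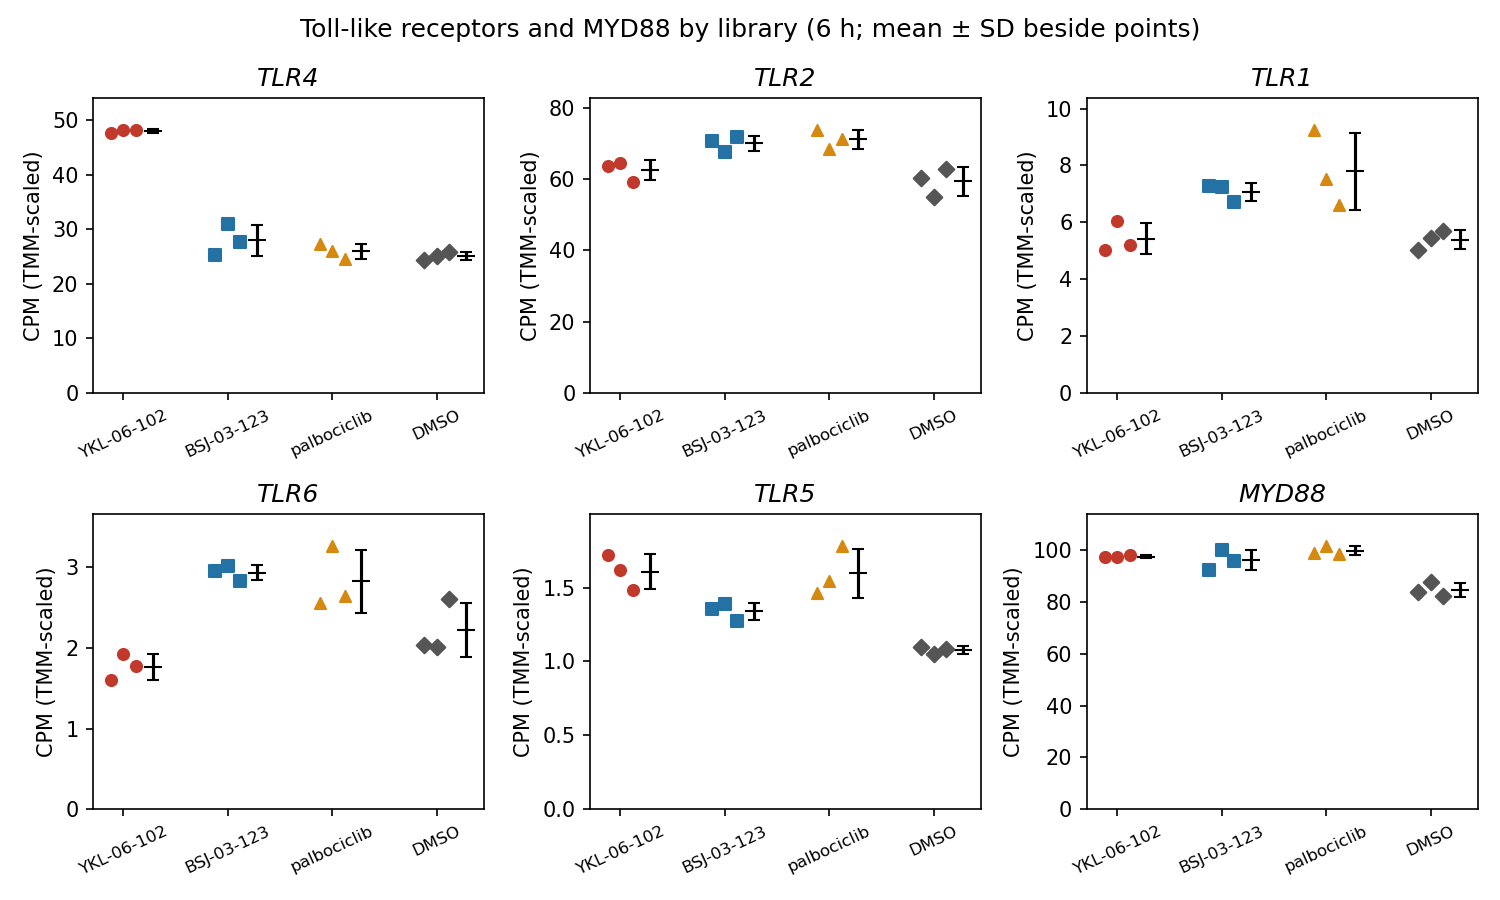
CPM of the 6 tested genes in every library, with the group mean and SD (n = 3) drawn beside the points; each axis starts at 0. TLR4 stands out in YKL-06-102 libraries at 47.6 to 48.3 CPM, and TLR2 and TLR1 are highest in BSJ-03-123 and palbociclib libraries, while for TLR6 palbociclib and DMSO libraries overlap.

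TLR2 and its partners TLR1 and TLR6 followed the opposite order among the compounds: they were lower with YKL-06-102 than with palbociclib or BSJ-03-123. TLR2 had 63.8, 64.4 and 59.3 CPM in YKL-06-102 libraries, 70.7, 67.6 and 71.8 CPM in BSJ-03-123 libraries, 73.9, 68.4 and 71.1 CPM in palbociclib libraries, and 60.3, 54.95 and 62.95 CPM in DMSO libraries. The BSJ-03-123 and palbociclib libraries all lay above the DMSO and the YKL-06-102 libraries, and the YKL-06-102 libraries overlapped with DMSO. TLR2 rose by 0.24 ± 0.049 with BSJ-03-123 (edgeR adjusted p = 3.06e-04) and by 0.27 ± 0.048 with palbociclib (adjusted p = 7.09e-05) on the log2 scale. With YKL-06-102 it differed from DMSO by 0.078 ± 0.048, with a 95% interval from -0.022 to 0.18 (adjusted p = 0.226). It was lower with YKL-06-102 than with palbociclib (-0.19 ± 0.047, adjusted p = 0.00316) and than with BSJ-03-123 (-0.16 ± 0.047, adjusted p = 0.0127). TLR2 lies on chromosome 4, 153684070 to 153705702, plus strand (ENSG00000137462).

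Both of these smaller differences of TLR2 lost their call in some fits on fewer libraries. The difference from palbociclib was lost without YKL-06-102 replicate 3 (-0.13) or palbociclib replicate 1 (-0.14), with adjusted p from 3.45e-04 to 0.0813 over the alternatives. The difference from BSJ-03-123 was lost without YKL-06-102 replicate 3 (-0.105), BSJ-03-123 replicate 1 (-0.14) or BSJ-03-123 replicate 3 (-0.14), with adjusted p from 0.00216 to 0.195.

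TLR1, which joins TLR2 to bind triacylated lipopeptides, had 5.04, 6.06 and 5.19 CPM in YKL-06-102 libraries, 7.27, 7.23 and 6.698 CPM in BSJ-03-123 libraries, 9.26, 7.51 and 6.60 CPM in palbociclib libraries, and 5.03, 5.45 and 5.698 CPM in DMSO libraries. Palbociclib libraries spread most, and each of them and of the BSJ-03-123 libraries lay above all YKL-06-102 and DMSO libraries. TLR1 rose by 0.54 ± 0.12 with palbociclib (edgeR adjusted p = 5.81e-04) and by 0.39 ± 0.12 with BSJ-03-123 (adjusted p = 0.0161), and with YKL-06-102 the log2 difference from DMSO was 0.0080 ± 0.12 (95% interval -0.25 to 0.26, adjusted p = 0.969). It was lower with YKL-06-102 than with palbociclib by a log2 fold change of -0.53 ± 0.11 (adjusted p = 6.60e-04) and than with BSJ-03-123 by -0.38 ± 0.12 (adjusted p = 0.0205). The rise with BSJ-03-123 missed the threshold without DMSO replicate 1 (0.34), BSJ-03-123 replicate 1 (0.36) or BSJ-03-123 replicate 2 (0.36), with adjusted p from 0.00532 to 0.0682 over the alternatives. The difference of YKL-06-102 from BSJ-03-123 missed it with DESeq2 (-0.37) and without BSJ-03-123 replicate 1 (-0.34) or 2 (-0.36) or YKL-06-102 replicate 1 (-0.31) or 3 (-0.33), with adjusted p from 0.00794 to 0.121.

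TLR6, the partner of TLR2 for diacylated lipopeptides, was counted at 39 to 45 reads in YKL-06-102 libraries, 59 to 63 in BSJ-03-123 libraries, 55 to 74 in palbociclib libraries and 39 to 50 in DMSO libraries. It averaged 1.76 ± 0.162 CPM with YKL-06-102, 2.93 ± 0.0947 with BSJ-03-123, 2.83 ± 0.386 with palbociclib and 2.22 ± 0.333 with DMSO. All YKL-06-102 libraries lay below the libraries of the other groups, those of DMSO included. Against DMSO no compound passed the test, with log2 fold changes of -0.32 ± 0.18 for YKL-06-102, 0.41 ± 0.17 for BSJ-03-123 and 0.36 ± 0.16 for palbociclib (edgeR adjusted p = 0.165, 0.0607 and 0.0934). Between compounds it was lower with YKL-06-102 than with palbociclib (-0.68 ± 0.17, adjusted p = 0.00245) and than with BSJ-03-123 (-0.73 ± 0.17, adjusted p = 0.00162). Against DMSO the test was passed by BSJ-03-123 with library totals (0.46) and without DMSO replicate 3 (0.525), and by palbociclib without DMSO replicate 3 (0.47), with adjusted p from 0.0328 to 0.202 and from 0.0482 to 0.37 over the alternatives. The palbociclib value was 0.24 without palbociclib replicate 2, and the YKL-06-102 value -0.20 without DMSO replicate 3.

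TLR1 and TLR6 are neighbouring, similar genes on the minus strand of chromosome 4 (38790677 to 38856817 and 38823715 to 38856817), which share 57 bases of exon and, of their 50-base stretches, 5.33% and 5.12% occur in another gene. Reads from the shared stretches cannot be assigned, so the counts of both are slightly uncertain.

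**Figure D3:**
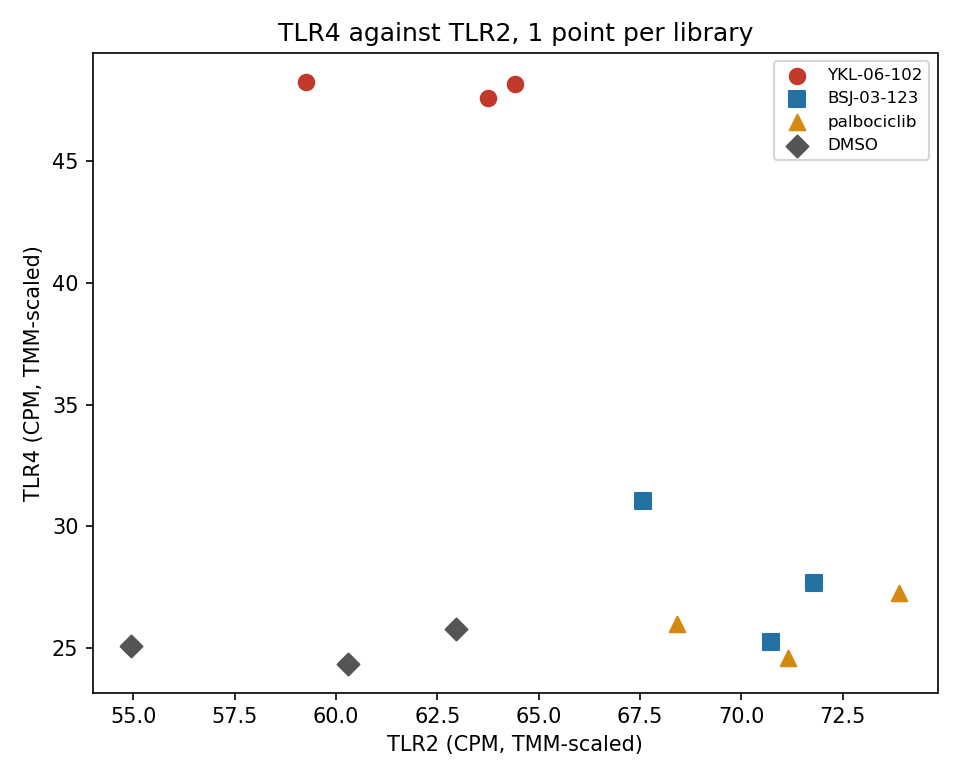
TLR4 against TLR2, in CPM, with 1 point per library and groups by colour and shape; the axes do not start at 0. YKL-06-102 libraries lie high on the TLR4 axis (47.6 to 48.3 CPM), and BSJ-03-123 and palbociclib libraries lie right of the DMSO libraries on the TLR2 axis (67.6 to 73.9 CPM).

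TLR5, the flagellin receptor, was weakly expressed: it was counted at 36 to 42 reads in YKL-06-102 libraries, 27 to 29 in BSJ-03-123 libraries, 35 to 37 in palbociclib libraries and 20 to 26 in DMSO libraries. Its level was 1.72, 1.62 and 1.48 CPM with YKL-06-102, 1.35, 1.39 and 1.27 CPM with BSJ-03-123, 1.46, 1.55 and 1.78 CPM with palbociclib, and 1.099, 1.05 and 1.09 CPM with DMSO. The libraries of each compound lay above those of DMSO. TLR5 rose with YKL-06-102 (log2 fold change 0.58 ± 0.20, edgeR adjusted p = 0.0245) and palbociclib (0.56 ± 0.21, adjusted p = 0.0362), and with BSJ-03-123 it did not pass the test (0.31 ± 0.22, adjusted p = 0.340). No pair of compounds differed at the threshold (YKL-06-102 over palbociclib 0.017 ± 0.18, YKL-06-102 over BSJ-03-123 0.26 ± 0.19, BSJ-03-123 over palbociclib -0.25 ± 0.20), and the 95% intervals, from -0.36 to 0.39, -0.13 to 0.66 and -0.65 to 0.15, leave room for sizeable differences. Both calls were fragile. That with YKL-06-102 was lost with DESeq2 (0.59), without any 1 DMSO library (0.58 to 0.59) and without YKL-06-102 replicate 1 (0.54), with adjusted p from 0.0167 to 0.122. That with palbociclib was lost with DESeq2 (0.56), with no filter (0.58), in a fit of the compared groups only (0.56), without any 1 DMSO library (0.54 to 0.57) and without palbociclib replicate 2 (0.58) or 3 (0.48), with adjusted p from 0.0195 to 0.141. TLR5 lies on chromosome 1, 223109406 to 223143282, minus strand (ENSG00000187554).

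The endosomal receptors TLR7 and TLR8 were near the limit of detection. TLR7 was counted at 4, 6 and 5 reads in YKL-06-102 libraries, 3, 3 and 2 in BSJ-03-123 libraries, 9, 2 and 4 in palbociclib libraries, and 3, 5 and 4 in DMSO libraries. TLR8 was counted at 3, 1 and 1 reads with YKL-06-102, 3, 4 and 1 with BSJ-03-123, 2, 2 and 0 with palbociclib, and 1, 1 and 3 with DMSO; the 0 allows up to 3 counts in that library. In CPM the groups overlapped for TLR8, and for TLR7 except that the BSJ-03-123 libraries lay below those of YKL-06-102 and of DMSO. Without the filter neither gene passed the test in any comparison, and no difference was called at this depth. They are neighbours on the X chromosome (12867083 to 12890380 and 12906620 to 12923169).

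The co-receptors of TLR4 were also barely counted, in contrast to TLR4 itself. CD14, which hands lipopolysaccharide to TLR4, had 9, 11 and 4 reads in YKL-06-102 libraries, 2, 3 and 4 in BSJ-03-123 libraries, 5, 1 and 3 in palbociclib libraries, and 7, 3 and 4 in DMSO libraries. Summed over the group this made 24 reads with YKL-06-102 (exact Poisson 95% interval 15.4 to 35.7), 9 with BSJ-03-123 (4.12 to 17.1), 9 with palbociclib (4.12 to 17.1) and 14 with DMSO (7.65 to 23.5). LY96, the subunit of the receptor that holds the lipid, had 7, 7 and 10 reads with YKL-06-102, 7, 14 and 2 with BSJ-03-123, 6, 7 and 4 with palbociclib, and 5, 3 and 4 with DMSO, with group sums of 24 (15.4 to 35.7), 23 (14.6 to 34.5), 17 (9.90 to 27.2) and 12 (6.20 to 21.0). The YKL-06-102 libraries lay above those of DMSO for LY96 and overlapped with them for CD14. When the filter was left out, neither gene passed the test in any of the 6 comparisons, the smallest edgeR adjusted p being 0.16 for CD14, in YKL-06-102 against palbociclib. These intervals cover counting error only. CD14 lies on chromosome 5, 140631728 to 140633701, and LY96 on chromosome 8, 73991352 to 74029087.

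MYD88, the adaptor shared by these receptors, rose with each compound by a similar, small amount. It had 97.2, 97.3 and 98.1 CPM in YKL-06-102 libraries, 92.4, 100.2 and 95.8 CPM in BSJ-03-123 libraries, 99.1, 101.7 and 98.6 CPM in palbociclib libraries, and 83.9, 87.6 and 82.3 CPM in DMSO libraries. The compounds' libraries all lay above those of DMSO. The log2 fold change was 0.20 ± 0.037 with YKL-06-102, 0.18 ± 0.038 with BSJ-03-123 and 0.24 ± 0.037 with palbociclib (edgeR adjusted p = 6.37e-05, 4.42e-04 and 1.13e-05), and these calls held under every alternative run. The compounds did not differ at the threshold, with 95% intervals from -0.11 to 0.042 for YKL-06-102 over palbociclib, -0.054 to 0.097 for YKL-06-102 over BSJ-03-123 and -0.13 to 0.022 for BSJ-03-123 over palbociclib. MYD88 lies on chromosome 3, 38138478 to 38143022, plus strand (ENSG00000172936).

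**Figure D4:**
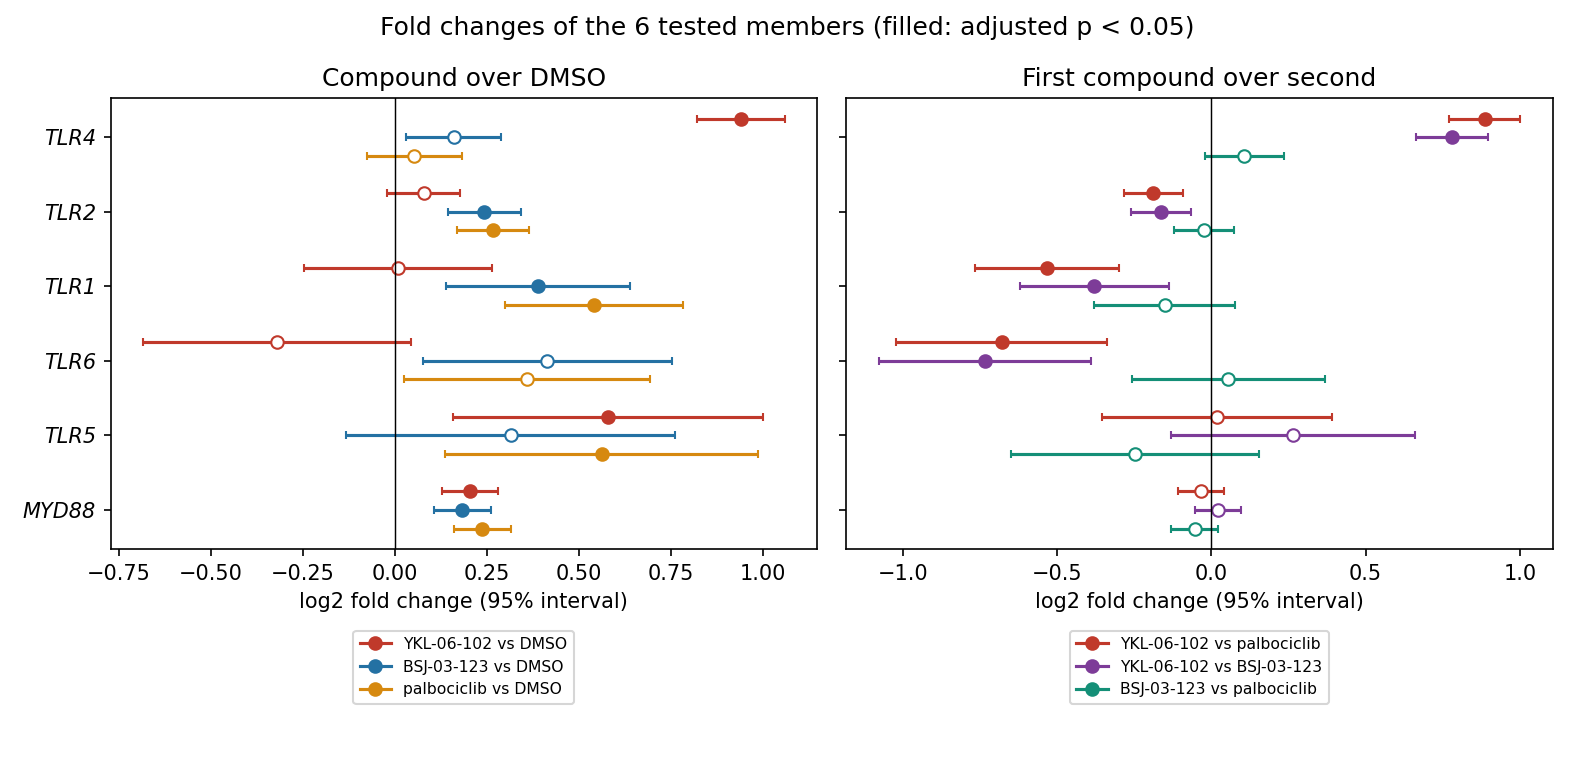
Log2 fold changes with 95% intervals of the 6 tested genes, over DMSO (left) and between compounds (right); filled points passed an adjusted p of 0.05. TLR4 lies right of 0 for YKL-06-102 in each of its comparisons, and TLR2, TLR1 and TLR6 lie left of 0 where YKL-06-102 is compared with the other compounds.

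Counted over the 6 tested genes, 3 were higher with YKL-06-102 than with DMSO (TLR4, TLR5 and MYD88), where 15.6% of all tested genes were higher. With BSJ-03-123 3 were higher (TLR1, TLR2 and MYD88), against 12.4% of all genes, and with palbociclib 4 (TLR1, TLR2, TLR5 and MYD88), against 15.6%. No tested member was lower with any compound than with DMSO in edgeR, DESeq2 or limma-voom, nor at an unadjusted p below 0.05 (0 in each), where 21.3%, 15.7% and 17.6% of all genes were lower with YKL-06-102, BSJ-03-123 and palbociclib. The median log2 fold change of the 6 was 0.14, 0.28 and 0.31 in that order, beside -0.017, 0.0075 and 0.014 over all tested genes. The 3 comparisons share their DMSO libraries, so a shift in those libraries enters each. All 6 had passed the filter on counts, and the 4 genes below it are in none of these counts. The members were chosen with earlier results of these data known, so shares among them, here and between compounds, are not independent of that choice. Scaling to library totals alone gave 5 higher members with BSJ-03-123, and it moved the share of all calls against DMSO that were higher to 54.3% with YKL-06-102, 61.8% with BSJ-03-123 and 63.5% with palbociclib, where TMM factors gave 42.2%, 44.1% and 47%.

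Between compounds, YKL-06-102 stood apart from both others. Against palbociclib, 1 of the 6 was higher (TLR4; 12.7% of all genes were higher) and 3 were lower (TLR1, TLR2 and TLR6; 11.9% of all genes were lower). Against BSJ-03-123 the split was again 1 higher and 3 lower, the genes being those just named, with 10.4% and 9.74% of all genes called; without BSJ-03-123 replicate 1 or YKL-06-102 replicate 3 this count of 4 dropped to 2 genes. BSJ-03-123 and palbociclib differed in none of the 6 genes, by edgeR, DESeq2 or limma-voom, and in 0 at an unadjusted p below 0.05. Among all genes 0.155% were higher with BSJ-03-123 and 0% lower by edgeR, with 517 lower at an unadjusted p below 0.05, and DESeq2 called 5 lower and limma-voom 0. The 95% interval of BSJ-03-123 over palbociclib ran from -0.020 to 0.23 for TLR4, from -0.12 to 0.073 for TLR2 and from -0.13 to 0.022 for MYD88. It ran from -0.38 to 0.076 for TLR1, from -0.26 to 0.37 for TLR6 and from -0.65 to 0.15 for TLR5. These data therefore leave room for differences between these compounds, widest for TLR5 and TLR6.

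The genes most like each member were ranked by Pearson's r of log2 CPM over the 12 libraries, among 10358 or 10359 genes of average log2 CPM of at least 2. The 12 libraries fall into 4 groups, share normalization and control libraries, and r therefore describes the group pattern. For TLR4 they were IGFBP4, which binds insulin-like growth factors (r = 0.988), CTNNA1, the alpha-catenin of adherens junctions (0.987), and VCL, vinculin of focal adhesions (0.987). For TLR2 they were COPB1, a coatomer subunit (0.957), CD84, a receptor of the SLAM family (0.939), and SPG11 (0.936). For TLR1 they were the histone demethylase KDM1B (0.960), the kinesin KIF3A (0.952) and C11orf54 (0.946), and for TLR6 the uridylyltransferase TUT4 (0.943), AFF3 (0.934) and the stress sensor kinase ERN1 (0.932). For TLR5 they were KHNYN (0.972), the calcium channel subunit ORAI3 (0.964) and LIX1L (0.962), and for MYD88 FAM214B (0.966), MXD4, a partner of MAX (0.960), and the nucleoside transporter SLC29A3 (0.959). Among the members themselves the closest were TLR5 with MYD88 (r = 0.831) and TLR1 with TLR2 (0.817), and the farthest TLR4 with TLR6 (-0.686).

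Around the receptors, 57 further genes of the pathway were listed by role and 45 of them were tested. The lists were chosen with earlier results of these data known, so the shares called, also by role, are not independent of that choice. Set against DMSO, YKL-06-102 gave 8 higher and 10 lower genes (17.8% and 22.2%, beside 15.6% and 21.3% of all genes), with BSJ-03-123 9 and 2 (20% and 4.44%, beside 12.4% and 15.7%), and with palbociclib 10 and 2 (22.2% and 4.44%, beside 15.6% and 17.6%). The median log2 fold change of the 45 was -0.0049, 0.061 and 0.077 in that order. Scaled to library totals alone, the calls numbered 17 in place of 11 for BSJ-03-123 and 21 in place of 12 for palbociclib. The other receptors TLR3, TLR9 and TLR10 had at most 7 counts in any library and were not tested. Between compounds, YKL-06-102 gave 5 higher and 9 lower genes than palbociclib (11.1% and 20%, beside 12.7% and 11.9% of all genes) and 5 higher and 8 lower than BSJ-03-123 (11.1% and 17.8%, beside 10.4% and 9.74%). BSJ-03-123 and palbociclib differed in 0 of the 45 by edgeR, DESeq2 and limma-voom, with 1 higher and 1 lower at an unadjusted p below 0.05.

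Among accessory proteins, CD180, a receptor of the family that has no signalling domain of the Toll type, fell with YKL-06-102 to 132 ± 5.88 CPM, against 186 ± 3.83 CPM with DMSO (log2 fold change -0.49 ± 0.036, edgeR adjusted p = 4.77e-12). It did not pass the test with BSJ-03-123 (197 ± 3.99 CPM) or palbociclib (197 ± 6.72 CPM). CD36, a scavenger receptor that assists TLR2, rose with YKL-06-102 (0.50 ± 0.051), BSJ-03-123 (0.26 ± 0.053) and palbociclib (0.18 ± 0.052), and the last of these was lost without DMSO replicate 2 (0.15) or palbociclib replicate 1 (0.14). The endosomal transporter SLC15A4 fell with YKL-06-102 (-0.29 ± 0.062). UNC93B1, which carries receptors to endosomes, and the receptor chaperone HSP90B1 were called with none of the compounds. Nor did the tested adaptors TIRAP, TICAM1 and SARM1.

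The 14 genes listed as downstream kinases and ubiquitin ligases include TAB1, TAB2, TAB3 and IKBKG, which encode binding partners or subunits of such kinases. Of the 14, 6 were called with YKL-06-102, each of them lower (42.9%, beside 21.3% of all genes). With BSJ-03-123 1 was higher and 2 were lower (7.14% and 14.3%, beside 12.4% and 15.7%). With palbociclib 2 were higher, TAB3 among them, and 2 lower (14.3% and 14.3%, beside 15.6% and 17.6%). IKBKE, the kinase IKK-epsilon that phosphorylates interferon regulatory factors, moved in opposite directions: it fell to 56.1 ± 1.43 CPM with YKL-06-102 (-0.20 ± 0.038, edgeR adjusted p = 1.44e-04) and rose to 83.3 ± 0.513 CPM with BSJ-03-123 (0.37 ± 0.037) and 83.4 ± 0.321 CPM with palbociclib (0.38 ± 0.037), against 64.2 ± 1.09 CPM with DMSO. YKL-06-102 differed from palbociclib by -0.57 ± 0.037 (adjusted p = 8.53e-13). IKBKB, the kinase IKK-beta that activates NF-kappaB, fell with YKL-06-102 (-0.26 ± 0.035). So did the IRAK kinases IRAK4 (-0.18 ± 0.051, edgeR adjusted p = 0.00577) and IRAK1 (-0.10 ± 0.032, edgeR adjusted p = 0.0131), which were not called with BSJ-03-123 or palbociclib. TRAF3, a ubiquitin ligase that links adaptors to interferon induction, fell with YKL-06-102 (-0.28 ± 0.038), BSJ-03-123 (-0.14 ± 0.038) and palbociclib (-0.23 ± 0.038), and CHUK, the kinase IKK-alpha, likewise fell with YKL-06-102 (-0.18 ± 0.045), BSJ-03-123 (-0.17 ± 0.046) and palbociclib (-0.16 ± 0.046). The call of TRAF3 with BSJ-03-123 was lost with library totals (-0.093) or without BSJ-03-123 replicate 1 (-0.11). That of CHUK was lost without DMSO replicate 1 with BSJ-03-123 (-0.13) and palbociclib (-0.12), and with library totals with palbociclib (-0.11).

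Of the 8 transcription factors 4 rose with YKL-06-102, 1 with BSJ-03-123 and 2 with palbociclib (50%, 12.5% and 25%, beside 15.6%, 12.4% and 15.6% of all genes). IRF5, which acts downstream of MYD88 in myeloid cells, rose with YKL-06-102 (0.33 ± 0.052), BSJ-03-123 (0.25 ± 0.053) and palbociclib (0.28 ± 0.053). NFKB2 (0.49 ± 0.080) and NFKB1 (0.17 ± 0.040), which encode NF-kappaB precursor subunits, rose with YKL-06-102. IRF7, a factor of interferon induction, rose with YKL-06-102 (0.14 ± 0.050) and with palbociclib (0.17 ± 0.050; 0.11 and not called without DMSO replicate 3). Of the 7 inhibitors of the pathway, 2 rose and 1 fell with YKL-06-102 (28.6% and 14.3%, beside 15.6% and 21.3% of all genes), 4 rose with BSJ-03-123 (57.1%, beside 12.4%) and 3 with palbociclib (42.9%, beside 15.6%). TNFAIP3, the deubiquitinating protein A20, rose with all 3 compounds (0.24 ± 0.066, 0.33 ± 0.067 and 0.28 ± 0.067 for YKL-06-102, BSJ-03-123 and palbociclib). IRAK3, an inhibitory member of the IRAK family, rose with YKL-06-102 (0.17 ± 0.034) and BSJ-03-123 (0.13 ± 0.034), and SIGIRR, an inhibitory receptor, with BSJ-03-123 (0.12 ± 0.045) and palbociclib (0.16 ± 0.045). The SIGIRR call with BSJ-03-123 lay just under the threshold (edgeR adjusted p = 0.046) and was not recomputed under the alternatives. CYLD, another deubiquitinase, rose with BSJ-03-123 (0.24 ± 0.041) and palbociclib (0.35 ± 0.041). Its log2 fold change with YKL-06-102 was -0.042 ± 0.042 and was not called. The decrease of RNF216 with YKL-06-102 (-0.095 ± 0.035) missed the threshold in 10 of 13 alternatives. IL1RAP, the shared receptor chain of interleukin-1 family cytokines, rose with BSJ-03-123 (0.16 ± 0.035) and palbociclib (0.15 ± 0.035).

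Of the 8 cytokine and chemokine outputs 5 were tested. TNF, the cytokine induced by these receptors in monocytes, rose to 30.8 ± 0.867 CPM with YKL-06-102 (log2 fold change 1.19 ± 0.081), 19.7 ± 1.18 CPM with BSJ-03-123 (0.54 ± 0.087) and 18.4 ± 2.40 CPM with palbociclib (0.44 ± 0.087), against 13.4 ± 1.60 CPM with DMSO (edgeR adjusted p = 7.04e-13, 1.57e-05 and 2.10e-04). YKL-06-102 gave more TNF mRNA than palbociclib (0.75 ± 0.074, adjusted p = 4.12e-09). CCL3 was lower with YKL-06-102 (-0.73 ± 0.29, adjusted p = 0.0491), and this call was lost in 8 of 13 alternatives. IL1B, the cytokine interleukin-1 beta, was lower with YKL-06-102 (1.91 ± 0.426 CPM) than with palbociclib (3.10 ± 0.497 CPM; -0.68 ± 0.19, adjusted p = 0.00656) and BSJ-03-123 (2.94 ± 0.569 CPM; -0.62 ± 0.19, adjusted p = 0.0209). IL1B, CXCL8 and CCL2 were called against DMSO with none of the compounds, and IL6, IL10 and CCL4 had at most 7 counts in any library.

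**Figure D5:**
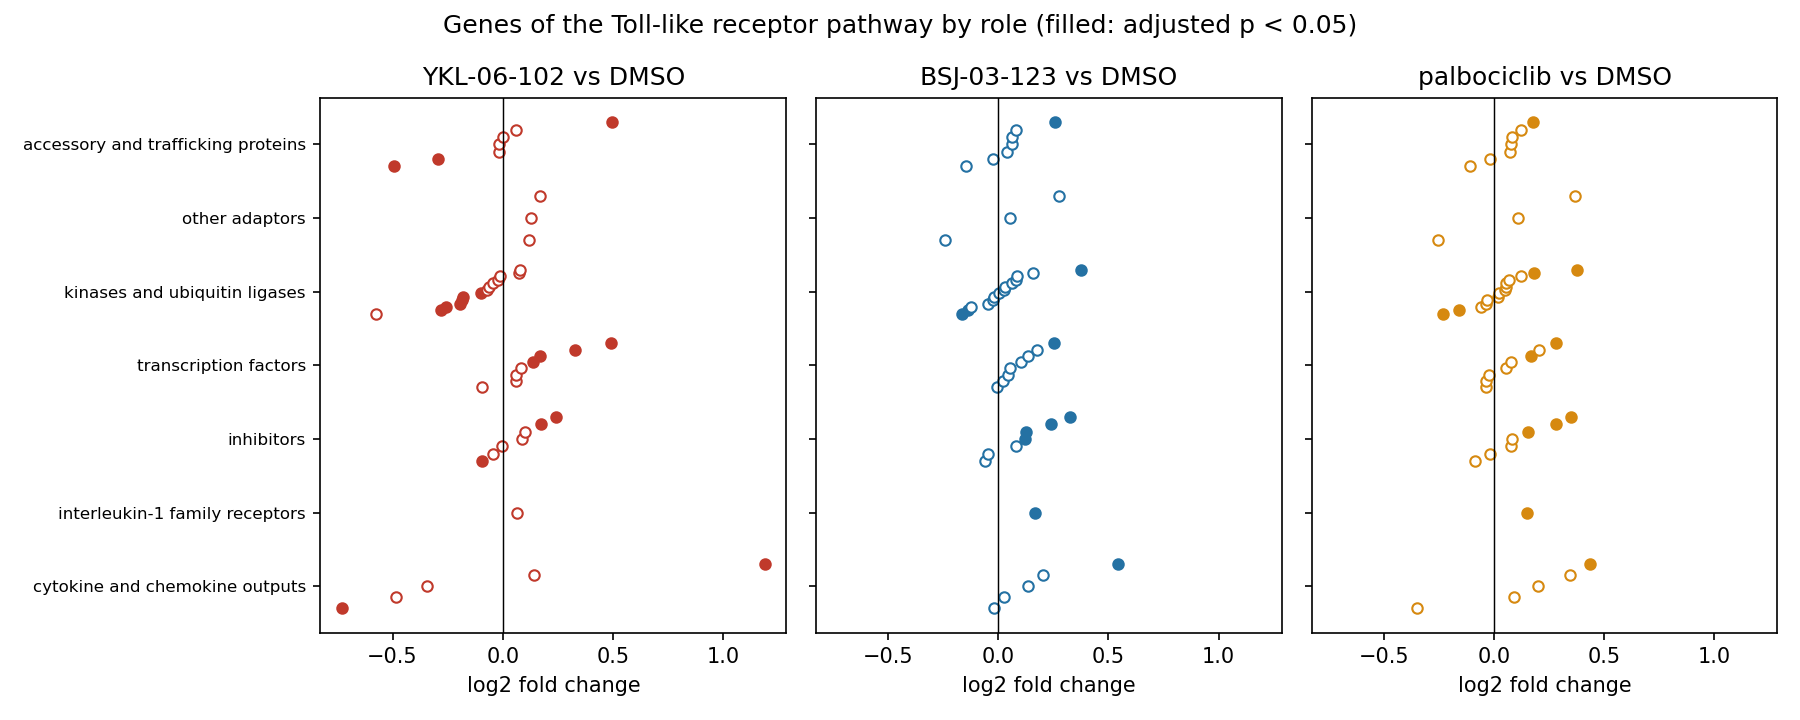
Log2 fold changes over DMSO of the 45 tested pathway genes by role, 1 point per gene, for YKL-06-102, BSJ-03-123 and palbociclib; filled points passed an adjusted p of 0.05. TNF lies farthest right for YKL-06-102 at 1.19, and the kinases and ubiquitin ligases called with YKL-06-102 all lie left of 0.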

How the data were processed

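Per the labels' protocols, polyadenylated RNA was made into libraries with the TruSeq Stranded mRNA chemistry. Per the submitters' processing notes, the tools were Trimmomatic 0.36, STAR 2.5.2b and HTSeq, with build hg38. The authors deposited raw read counts per Ensembl gene, with no normalization. Not given in the sources used here: which annotation release was counted, with which HTSeq version and which strand option. Counts of genes that overlap others could depend on that setting: of the 10 genes, TLR1 and TLR6 overlap each other on the same strand, and TLR4 shares 558 exon bases with a gene model that has no row in the table.

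Names came from GENCODE 29 (GRCh38), found for 57447 of the 58051 IDs, and exon lengths are unions of its exons. The members and lists were chosen with earlier results of these data known. Of the genes, 14214 passed edgeR's filterByExpr (minimum count 10, minimum total 15) and held 99.9% of counts. All 12 libraries were fitted with edgeR 4.0.16 in R 4.3.3 (TMM factors, quasi-likelihood method, with 8 degrees of freedom left for the residual), with 6 contrasts tested 2-sided and Benjamini-Hochberg adjustment over all tested genes. Standard errors and 95% intervals are Wald values from that fit. The code was tested on simulated data. Library totals ranged from 18764307 to 25539858, and the common biological coefficient of variation was 3.08%. A count of 0 allows up to 3 counts.

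Named genes are the 10 members, up to 3 called pathway genes per role and compound by smallest p, and the 3 genes most correlated with each member. Pathway genes that were not called, and CHUK, IRAK1, IRAK4 and IRF7 with YKL-06-102, were picked after their values were seen. So were TAB3 with palbociclib, SIGIRR with BSJ-03-123 and comparisons between compounds for IKBKE, TNF and IL1B. Alternatives were DESeq2 1.42.0 size factors, library totals, no filter, DESeq2, limma-voom (limma 3.58.1), a fit of the compared groups, a replicate block and leaving out each library. For single pathway genes these were added after seeing the data, and were not run for the pathway values picked after they were seen. Same-numbered libraries of different groups did not all deviate together (correlations -0.163 to 0.227 over 18 pairs, and not all over 0.1), so the numbers were not taken as pairs. Promoter windows are from RefSeq.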

Additional observations from a re-analysis of the deposited data

How the results depend on the processing

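Of 465 recomputed fold changes of the 6 tested members, 426 kept their direction and their side of the threshold, 26 lost the call, 6 gained one and 7 turned sign, none of these called in any fit. The 7 came from leaving out 1 library: the range over such fits was -0.058 to 0.077 for TLR1 in YKL-06-102 over DMSO, -0.026 to 0.099 for TLR5 and -0.040 to 0.0031 for MYD88 in YKL-06-102 over palbociclib, and -0.052 to 0.0034 for TLR2 and -0.020 to 0.17 for TLR6 in BSJ-03-123 over palbociclib. Calls against DMSO held under every alternative for TLR4 with YKL-06-102, MYD88 with each compound, TLR2 with BSJ-03-123 and palbociclib, and TLR1 with palbociclib, as did those of YKL-06-102 against both other compounds for TLR4 and TLR6 and against palbociclib for TLR1. With library totals, 5 members in place of 3 and 17 pathway genes in place of 11 were called for BSJ-03-123 against DMSO. For palbociclib against DMSO, 21 pathway genes were called in place of 12. That scaling also raised the share of all calls that were higher to 61.8% (44.1% with TMM factors) for BSJ-03-123, to 63.5% (47%) for palbociclib and to 54.3% (42.2%) for YKL-06-102. TMM factors ran from 0.971 to 0.983 in DMSO libraries and from 1.002 to 1.014 in those of the compounds. Leaving them out therefore raises each compound relative to DMSO. Why the factors differ between groups was not tested. Leaving out single libraries gave 2 to 4 members and 8 to 12 pathway genes called for YKL-06-102 against BSJ-03-123, where 4 and 13 were reported with all libraries.

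With the replicate block, the fold change of TLR4 with YKL-06-102 over DMSO was 0.94, and the block changed no call of a member. Of the 12 libraries, 8 correlated best with a library of their own number, a hint from the data and not from the design. Depth limits the precision for TLR7, TLR8, CD14 and LY96, which had 0 to 14 counts per library.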
